A study of Mus musculus with 16 samples.

Results

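The locus described here lies on mouse chromosome 6 and holds Nanog, Dppa3 and Gdf3 together with Apobec1 and Slc2a3. Its members were the OCT4 peaks whose midpoint lay within 100 kb of any annotated transcript start of these 5 genes (GENCODE M21, build GRCm38/mm10), and 15 of the 26704 peaks in the list were members. ChIP-seq, in which DNA bound to a protein is precipitated with an antibody and sequenced, was performed for OCT4 in 2TS22C cells, a mouse embryonic stem (ES) cell line in which a Tet-Off promoter drives the only active Sox2, a transgene, so that doxycycline (dox) shuts SOX2 off. Untreated cells (SOX2 ON) and cells given 1 µg/ml dox for 26 hr (SOX2 OFF) were profiled with 2 replicates each, all in serum medium with LIF and the kinase inhibitors CHIR99021 and PD184352. The series also includes BRG1 libraries from these cells and H3K27ac libraries from these and from ZHBTc4 cells, in which dox shuts off OCT4, and none of these were analysed here.

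The peak list is a merge and gives only the chromosome, start and end of each peak. It carries no height, read count or library name, and which of the 4 OCT4 libraries entered it was not stated, so the effect of SOX2 loss on these peaks was not analysed here and no value below has a replicate error. Read depth is unknown from the list. A site without a peak was therefore one not called at this depth, which is not the same as one without OCT4. All shares below compare the 15 peaks with the whole list, or a gene with all protein-coding genes, as descriptions without a test.

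OCT4 is a POU-family transcription factor that reads the octamer ATTTGCAT, and SOX2 is an HMG-box factor that reads the core CCATTGT or CCTTTGT. The pair can bind side by side on a composite element, in which ATTTGCAT is directly followed by AACAATG on the same strand. NANOG is a homeodomain factor that supports self-renewal of ES cells, DPPA3 (also called Stella) is a maternal and germline protein that protects DNA methylation in the early embryo, and GDF3 is a ligand of the TGF-beta superfamily. Apobec1 encodes a cytidine deaminase that edits RNA, and Slc2a3 encodes the glucose transporter GLUT3. Nanog, Dppa3 and Gdf3 are neighbours that are expressed together in pluripotent cells.

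Peaks were numbered 1 to 15 along the plus strand. The sequences that carry the results are those of the peaks nearest to a start of Nanog (peak 8), Dppa3 (peak 4), Gdf3 (peak 2) and Slc2a3 (peak 13), of the remaining peak with a composite match (peak 5), and of the widest peak (peak 7). All are from build GRCm38, plus strand, and give the central part of the peak. That of peak 8 stops at the base before the first annotated Nanog exon. Capitals mark matches to the composite element with at most 3 mismatches, and exact matches to the octamer, the SOX core or another searched motif, as described further on.
Peak 8, chr6:122707241-122707488: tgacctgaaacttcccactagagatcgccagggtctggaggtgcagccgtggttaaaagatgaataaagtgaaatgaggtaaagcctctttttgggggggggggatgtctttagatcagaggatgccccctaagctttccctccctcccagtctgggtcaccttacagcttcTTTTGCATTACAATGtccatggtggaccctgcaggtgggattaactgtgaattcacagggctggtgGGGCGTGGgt
Peak 4, chr6:122624531-122624830: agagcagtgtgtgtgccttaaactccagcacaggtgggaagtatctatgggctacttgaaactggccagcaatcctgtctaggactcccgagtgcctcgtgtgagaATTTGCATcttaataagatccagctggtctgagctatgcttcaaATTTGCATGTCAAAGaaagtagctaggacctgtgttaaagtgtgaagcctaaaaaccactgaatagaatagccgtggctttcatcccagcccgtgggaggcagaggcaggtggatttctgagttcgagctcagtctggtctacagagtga
Peak 5, chr6:122662793-122663092: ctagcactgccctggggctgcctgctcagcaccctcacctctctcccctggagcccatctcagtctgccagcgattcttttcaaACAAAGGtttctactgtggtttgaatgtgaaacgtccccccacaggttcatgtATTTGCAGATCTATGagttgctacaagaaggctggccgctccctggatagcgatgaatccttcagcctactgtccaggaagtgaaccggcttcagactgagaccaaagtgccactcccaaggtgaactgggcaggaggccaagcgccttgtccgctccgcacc
Peak 2, chr6:122608463-122608762: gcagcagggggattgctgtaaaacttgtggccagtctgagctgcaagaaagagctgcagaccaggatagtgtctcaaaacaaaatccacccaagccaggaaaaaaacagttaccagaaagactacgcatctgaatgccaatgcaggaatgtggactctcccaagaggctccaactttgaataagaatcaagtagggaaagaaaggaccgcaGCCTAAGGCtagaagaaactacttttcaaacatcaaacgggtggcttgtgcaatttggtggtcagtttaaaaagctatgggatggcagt
Peak 13, chr6:122804676-122804975: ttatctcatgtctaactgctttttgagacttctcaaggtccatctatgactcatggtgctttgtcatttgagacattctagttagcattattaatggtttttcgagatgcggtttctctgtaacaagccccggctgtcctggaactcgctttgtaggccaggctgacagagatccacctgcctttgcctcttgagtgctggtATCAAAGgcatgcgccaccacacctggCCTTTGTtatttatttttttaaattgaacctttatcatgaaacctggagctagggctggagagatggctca
Peak 7, chr6:122702585-122702884: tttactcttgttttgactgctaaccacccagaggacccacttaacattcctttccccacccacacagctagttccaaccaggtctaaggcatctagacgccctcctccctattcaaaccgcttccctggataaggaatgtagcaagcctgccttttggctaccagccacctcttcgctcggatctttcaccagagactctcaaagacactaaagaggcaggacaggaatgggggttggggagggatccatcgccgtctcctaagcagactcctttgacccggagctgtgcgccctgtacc

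The Nanog promoter carried the peak nearest to any gene start of the locus. Peak 8 (chr6:122707202-122707578, 377 bp) had its midpoint 99 bp upstream of the first Nanog start at position 122707489, and 42 of its bases reached into annotated exon. Of all protein-coding genes, 3.75% had a peak this near or nearer. The peak held TTTTGCATTACAATG (chr6:122707413-122707427, plus strand), in capitals in the sequence of peak 8, which matched the composite element with 1 mismatch in the octamer part and 1 in the SOX part. It was the closest composite match of the 15 peaks, and its centre lay 30 bp from the peak midpoint. A KLF match, GGGCGTGG (chr6:122707479-122707486), ended just before the first exon.

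Peak 7 lay 4.76 kb upstream of the Nanog start (chr6:122702251-122703217, intergenic). At 967 bp it was the widest peak of the locus, and 1.19% of all peaks were as wide or wider. Its central 300 bases, printed above, held no match to any searched motif. A pair of SOX cores, CCTTTGT on the plus and on the minus strand, lay in its downstream part, and its closest composite window had 5 mismatches. Peak 6 (chr6:122690143-122690536, 394 bp) was another intergenic peak upstream of Nanog, at 17.15 kb. It held a pair of KLF matches, GGGTGTGG and GGGCGTGG, and neither octamer nor SOX core. The GGGCGTGG match lay wholly in repeat-masked sequence.

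Between Dppa3 and Nanog, 44.5 kb upstream of Nanog and 36.2 kb downstream of a Dppa3 start, lay peak 5 (chr6:122662757-122663128, 372 bp, intergenic). Its composite match ATTTGCAGATCTATG (chr6:122662930-122662944) was centred 5.5 bp from the midpoint, with 1 mismatch in the octamer part and 2 in the SOX part. The peak also held a SOX core and, at its downstream edge, a TCF match (CTTTGAT, the letters read by the WNT effectors of the TCF/LEF family). Its GC content of 55.6% was among the highest of the 15 peaks, exceeded only by peak 10 with 55.8%.

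At Dppa3, peak 4 (chr6:122624446-122624914, 469 bp, intergenic) lay 1.73 kb upstream of the first start at position 122626410. It was the only peak of the locus with more than 1 octamer. The composite match ATTTGCATGTCAAAG (chr6:122624681-122624695) had a perfect octamer with 3 mismatches in the SOX part, and its centre lay 8 bp from the midpoint. A second perfect octamer stood apart from it at chr6:122624637-122624644, both visible in the sequence of peak 4, and a SOX core lay near the upstream edge. Of the 31-base words in this peak, 6.15% occurred more than once in the genome, and 23.2% of its bases were repeat-masked.

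Gdf3, on the minus strand, had its nearest peak inside the gene. Peak 2 (chr6:122608288-122608937, 650 bp) had its midpoint in an intron, 1.21 kb downstream of a Gdf3 start, with 37 exonic bases. It was the second widest peak and held an AP-2 match, GCCTAAGGC, but no octamer and no SOX core. Its closest composite window had 4 mismatches, 2 in each part. Peak 3 (chr6:122617399-122617786, 388 bp) lay 7.51 kb upstream of Gdf3 in intergenic sequence, 64.2% of it was repeat-masked, the highest share of the 15, and it held none of the searched motifs.

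Apobec1, also on the minus strand, had its own intronic peak 1 (chr6:122591200-122591607, 408 bp), 8.72 kb downstream of an Apobec1 start. The peak nearest to an Apobec1 start was instead the Gdf3 intronic peak 2, at 6.17 kb. Peak 1 contained 61 exonic bases and no searched motif, and its closest composite window had 5 mismatches, of which 4 fell in the SOX part. Upstream of it on the chromosome no peak was listed for 99.1 kb.

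Slc2a3 spans peaks 9 to 12, all with an intronic midpoint. Only some of the 8 annotated Slc2a3 transcripts cover these midpoints, so the intronic label rests on those transcripts. Peak 9 (chr6:122751699-122752057, 359 bp), which lay 8.96 kb upstream of the nearest of the 8 Slc2a3 starts, held an octamer, the only one inside the 15 peaks other than those of peak 4, together with a SOX core. The octamer was not part of a composite element, since all 5 mismatches of its window fell in the SOX part. Peaks 10 (chr6:122764775-122765394, 620 bp) and 11 (chr6:122766180-122766449, 270 bp) were 14.9 kb and 13.6 kb downstream of a start, and 57.6 kb and 58.8 kb from the Nanog start. Peak 10 held a SOX core and an AP-2 match, whereas peak 11, the narrowest of the 15, held no motif. Peak 12 (chr6:122770264-122770790, 527 bp), at 9.43 kb, held the widest choice of motifs, with a SOX core, a KLF, an AP-2 and an ESRRB match (TCAAGGTCA), found in no other of the 15 peaks. The ESRRB match lay wholly in repeat-masked sequence.

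Peaks 13 and 14 lay upstream of Slc2a3 in intergenic sequence. Peak 13 (chr6:122804669-122804981, 313 bp), 3.19 kb from the start, was the peak nearest to Slc2a3 and held a SOX core and a TCF match, and 54.0% of its bases were repeat-masked. Both matches lay wholly in the masked part. Peak 14 (chr6:122810415-122810910, 496 bp), 9.02 kb upstream, held a SOX core and a STAT3 match, TTCCAGGAA, found in no other of the 15 peaks. Its midpoint lay 507.5 bp from an annotated start of a gene that is not protein-coding. Peak 15 (chr6:122892555-122893060, 506 bp) stood alone, 91.2 kb upstream of Slc2a3 and 18.2 kb from the nearest protein-coding start, that of Necap1, after 81.6 kb without a peak. It held an AP-2 match. It was also the member nearest to the 100 kb limit, while the closest peaks outside it lay at 108 kb (chr6:122491666-122492072) and 134 kb (chr6:122935454-122936061) from a start of the 5 genes.

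**Figure D1:**
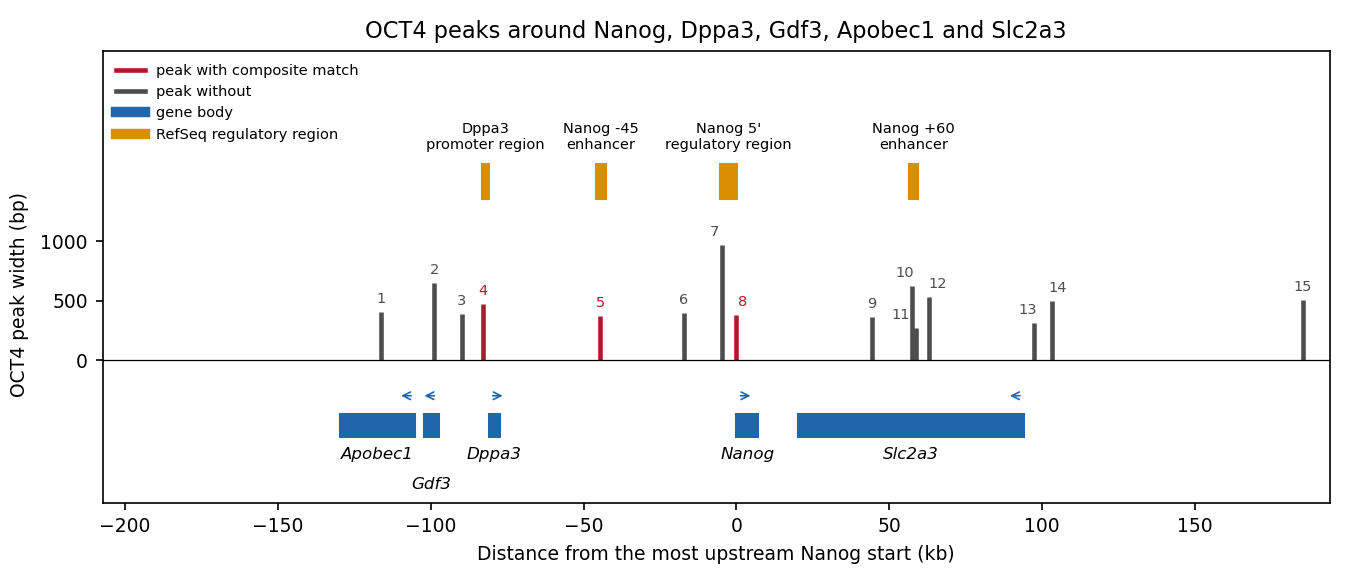
OCT4 peaks of the locus by distance from the most upstream Nanog start in kb (x axis), with peak width in bp as the height of each line (y axis), gene bodies in blue with arrows for the direction of transcription, and RefSeq regulatory regions in orange. The 3 peaks with a composite match (4, 5 and 8) are in red, and peak 15 stands apart at 185 kb.

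How densely OCT4 peaks were placed was described with the joined 100 kb windows, which spanned chr6:122500127-122901640 or 401.5 kb. The locus held 37.4 peaks per Mb, compared with 10.5 on chromosome 6 and 9.80 over all chromosomes, a ratio of 3.55 to chromosome 6. Peaks covered 1.77% of the locus and 0.390% of the genome. When the genome was divided into windows of this length, 1.42% of 6777 windows held 15 peaks or more. The locus was placed around gene starts, whereas these windows also cover stretches with few genes, so the 2 are not matched. Of the 15 peaks, 10 had another peak within 10 kb, whereas 33.9% of all peaks did. Joining peaks at that distance gave 9 units, of which the largest held 3 peaks each, namely peaks 2 to 4 over 16.1 kb from the Gdf3 intron to the Dppa3 upstream region, and peaks 10 to 12 over 5.44 kb in Slc2a3. Peaks 7 and 8 upstream of Nanog were 4.66 kb apart, and peaks 13 and 14 were 5.84 kb apart.

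Most of the peaks were distal. Only peak 8 lay within 1 kb of a protein-coding start, compared with 13.8% of all peaks, and 3 peaks did when the distance was 2.5 kb. The 13.8% refers to 1 kb and is no comparison for the 3 peaks. The midpoint was intergenic in 9 peaks and intronic in 6. Among all peaks 46.1% were intergenic and 45.5% intronic. For peaks 9 to 12 the intronic label held only in some of the annotated Slc2a3 transcripts. The peaks ranged from 270 bp to 967 bp in width with a median of 408 bp, against a median of 352 bp in the whole list, and 13 were above that median. At least 500 bp were covered by 5 of the 15 (peaks 2, 7, 10, 12 and 15) and by 20.8% of all peaks. Because merging joins overlapping peaks, a width can exceed the stretch bound in any single library.

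Base composition was close to that of the list. Median GC content was 47.1%, from 41.8% in peak 9 to 55.8% in peak 10, against 46.4% for all peaks. The repeat-masked share was larger, with a median of 23.5% against 13.0% and 11 peaks above the median of the list, while 38.3% of the locus as a whole was masked. Between 0% and 10.2% of a peak's 31-base words occurred more than once in the genome, with the highest share in peak 6, so that the peaks were made mainly of words found at a single place.

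Motif content was then compared with the whole list. The composite element was found in 3 of the 15 peaks and in 11.5% of all peaks, and the exact octamer in 2 (peaks 4 and 9) and 11%. The SOX core was the most frequent motif, present in 8 peaks (4, 5, 7, 9, 10, 12, 13 and 14) and in 30.3% of all peaks. In the central 200 bp alone the SOX core was present in 5 peaks. The 30.3% refers to whole peaks and is no comparison for that count. At least 1 of these 3 motifs was present in 9 peaks and in 43.7% of all peaks. In the 3 composite matches the centre lay 5.5 bp to 30 bp from the midpoint, and of all 3083 peaks with a composite match 33.5% had one this near (within 30 bp), with a median distance of 50 bp. Longer peaks have more room for a match, and the peaks of the locus were wider than the list.

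The mismatches fell differently in the 3 composite matches. At Dppa3 the octamer was perfect and the SOX part carried all mismatches, at peak 5 the SOX part carried 2 of 3, and at the Nanog promoter each part carried 1. Over the 15 peaks, the closest composite window had 2 mismatches in 1 peak, 3 in 2, 4 in 1, 5 in 9 and 6 in 2. Among all peaks the most frequent value was also 5, in 38.1%, and 35.9% had a window with 4 or fewer mismatches, which in the locus was the case for 4 peaks.

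**Figure D2:**
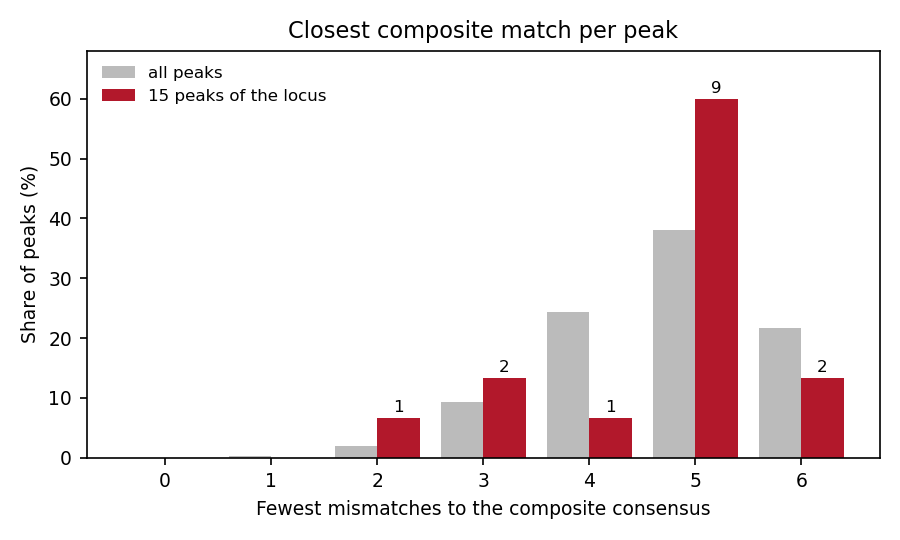
Share of peaks in percent (y axis) by the fewest mismatches to the composite OCT4::SOX2 element in any window of the peak (x axis), for all 26704 peaks in grey and the 15 peaks of the locus in red, with the number of these peaks above each red bar. Both sets are most frequent at 5 mismatches, and the peaks with 2 or 3 are peaks 8, 4 and 5.

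Letters read by other factors were searched in the same way. A KLF match (GGGTGTGG or GGGCGTGG, read by the Krüppel-like factors KLF2, KLF4 and KLF5) was present in 3 peaks (6, 8 and 12) and in 9.19% of all peaks. An ESRRB match (TCAAGGTCA, read by an orphan nuclear receptor of naive ES cells) was present in 1 and 3.08%, and a STAT3 match (TTCCNGGAA, read by the effector of LIF) in 1 and 1.73%. TCF letters (CTTTGAT) were found in 2 peaks (5 and 13) and in 9.05%, and AP-2 letters (GCCNNNGGC) in 4 (2, 10, 12 and 15) and in 12.5%. The CTCF motif was found in 0 of the 15 peaks and in 0.513% of all peaks. Peaks 1, 3 and 11 held none of the 9 motifs. Both strands were searched, and a match or its absence describes only these letters in this window.

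**Figure D3:**
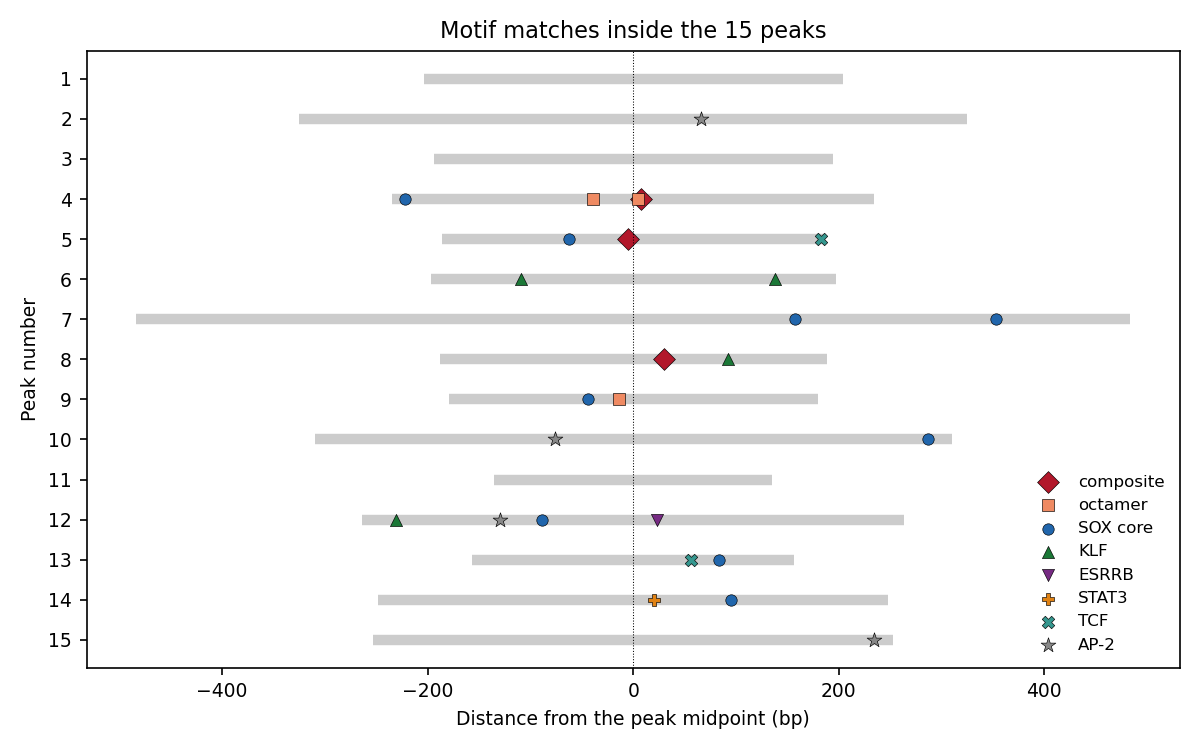
Positions of motif matches inside each of the 15 peaks, in bp from the peak midpoint (x axis), with 1 grey bar per peak showing its extent (y axis, peak number). Composite matches (red diamonds) in peaks 4, 5 and 8 lie 5.5 to 30 bp from the midpoint, while SOX cores lie up to 353 bp from it.

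Composite matches without a peak were more common than those with one. The locus held 16 windows with at most 3 mismatches, of which 3 lay in peaks and 13 did not. The match at the Nanog promoter was the only one with 2 mismatches, and none had fewer. Over the genome 2.03% of 158508 such matches lay in peaks. Matches were 39.8 per Mb in the locus and 59.9 per Mb in the genome, compared with 422 per Mb within the 15 peaks and 303 per Mb within all peaks. The 422 rests on 3 matches in 7116 bp.

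RefSeq annotates regulatory regions in the genome from published reporter and binding experiments, and it lists 4 in this locus. The OCT4 peaks overlapped all 4 of these regions, compared with 17.2% of the 888 regions in the genome and 23.7% of those at least 2 kb long. Peak 4 lay in the Dppa3 promoter region (chr6:122624292-122626494) and peak 5 in the Nanog -45 enhancer (chr6:122661585-122664705). Peaks 7 and 8 lay in the Nanog 5' regulatory region (chr6:122702195-122707847). Peaks 10 and 11 lay in the Nanog +60 enhancer (chr6:122764029-122766891), which is within Slc2a3. The midpoints of peaks 10 and 11 are covered by only some annotated Slc2a3 transcripts. Thus 6 of the 15 peaks lay in these regions, among them all 3 with a composite match, and 9 did not. The share of all peaks lying in such regions was not counted, so these counts of peaks have no comparison. All 4 enhancer features of the locus were overlapped, against 14.7% of 1015 enhancer features in the genome. These features lie inside the regions already counted, so they count the same peaks again. These annotations were curated around well-studied genes, OCT4 targets included, so the overlap is not independent of earlier work on OCT4.

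The finer RefSeq features placed individual factors within the peaks. Of 18 protein binding sites in the locus 15 overlapped a peak, and 8.99% of such sites did in the genome. The sites are clustered upstream of Nanog and therefore count the same peaks 7 and 8 repeatedly. In peak 8 the annotated Oct/Sox box (chr6:122707401-122707438), a site of OCT4 and SOX2 in the Nanog promoter, contained the composite match, in capitals, in full.
Oct/Sox box: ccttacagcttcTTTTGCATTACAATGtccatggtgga

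Directly before that box RefSeq places a site for ESRRB (chr6:122707392-122707400). The ESRRB site did not match the ESRRB letters searched, as its sequence shows. Peak 7 covered a 404 bp enhancer fragment (chr6:122702524-122702927) with sites for NANOG and for KLF2, KLF4 and KLF5, followed downstream by a STAT3 site (chr6:122703074-122703082). The KLF and STAT3 sites likewise held no match to the letters searched. The next base but one after the STAT3 site began a SOX core on the minus strand (chr6:122703084-122703090). The exact-letter counts given for KLF, ESRRB and STAT3 therefore missed sites that RefSeq lists in these peaks.
ESRRB site in peak 8: tctgggtca
KLF probe in peak 7: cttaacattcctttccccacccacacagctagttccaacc
STAT3 site in peak 7: ttcctagaa

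Counted from the genes, Nanog had 12 peaks within 100 kb of any of its starts, a number reached by 1.03% of 21938 protein-coding genes. Slc2a3 had 11 (1.81% of genes had as many), Dppa3 and Gdf3 had 8 each (8.06% for Dppa3 and 8.06% for Gdf3), and Apobec1 had 6 (20%). The median gene had 3, and 85.4% of genes had a peak within that distance. The windows of the 5 genes overlap, so most peaks are counted for several genes: the 3 composite peaks lay within 100 kb of Nanog, of Dppa3 and of Gdf3 alike. At 10 kb the counts were 4 for Slc2a3 and 2 for each of the other genes. The 8 Slc2a3 starts spread from position 122733176 to 122801640, so its window was wider than those of the other genes. Of its 4 peaks at 10 kb, peaks 9 and 12 were that near only to internal starts. Counted from the most upstream start alone, Slc2a3 had 9 peaks within 100 kb.

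**Figure D4:**
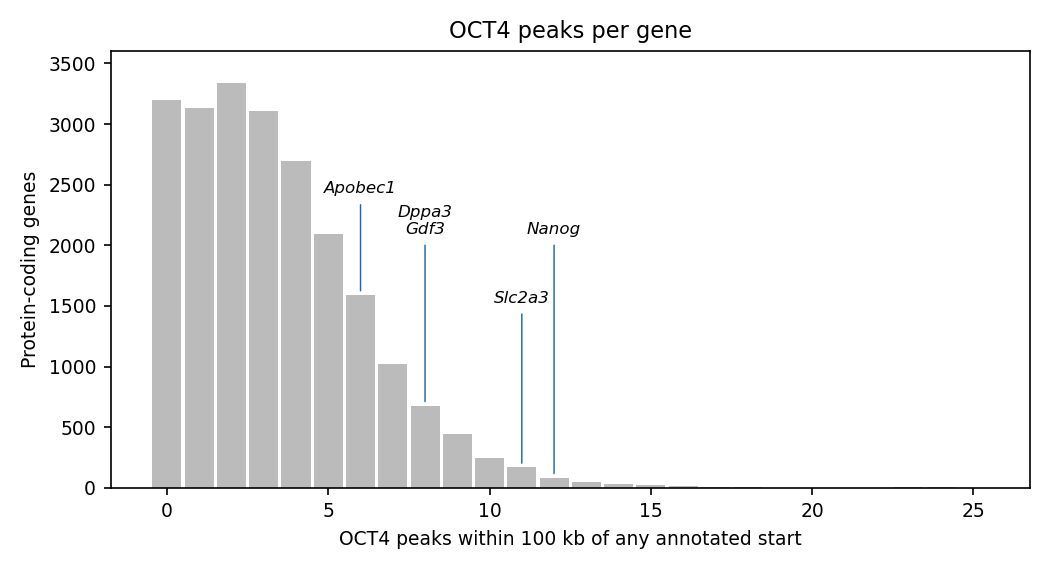
Number of protein-coding genes (y axis) by the number of OCT4 peaks within 100 kb of any of their annotated starts (x axis), with the 5 genes of the locus named at their own counts. Nanog with 12 and Slc2a3 with 11 peaks sit in the right tail, whereas Apobec1 with 6 is closer to the bulk of genes.

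The order by nearest peak differed from the order by count. A peak lay 0.099 kb from a Nanog start, 1.21 kb from Gdf3, 1.73 kb from Dppa3, 3.19 kb from Slc2a3 and 6.17 kb from Apobec1, while the median over all genes was 18.5 kb. Of other protein-coding genes with a start in the locus, 4 are described here. Mfap5, which encodes a microfibril protein, had 7 peaks within 100 kb, the forkhead gene Foxj2 had 7, the complement receptor gene C3ar1 had 7 and Necap1, an endocytosis gene, had 4. Their nearest peaks lay between 9.25 kb (Foxj2) and 36.6 kb (C3ar1) away.

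Among 20 genes known for pluripotency, every gene had a peak within 100 kb, compared with 85.4% of all protein-coding genes. Their median was 6, against 3 over all genes. Counts ranged from 1 for Utf1 to 15 for Sall4, followed by Pou5f1, which encodes OCT4 itself, with 13. Only these last 2 genes had 10 or more, so that Nanog with 12 would rank below both. Each of 11 relatives of the 5 genes had a peak within 100 kb too. Their median was also 6, from 3 for the fructose transporter gene Slc2a5 to 11 for Apobec3. In Slc2a1, which encodes the glucose transporter GLUT1, the count was 8 against 11 in Slc2a3, or 9 from the most upstream Slc2a3 start. In the TGF-beta family Nodal had 6 against 8 in Gdf3. The order was reversed for Apobec3, with 11 against 6 in Apobec1.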

How the data were processed

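OCT4 ChIP-seq reads from 2TS22C cells were aligned by the authors to mm10 with STAR 2.6.1c, duplicates were removed with Picard, and peaks were called with MACS2 2.1.1.20160309 in paired-end mode and merged with BEDTools (per the submitters' processing notes and the study's methods). The deposited values are peak coordinates in base pairs, with no score, so no test over samples was possible, and depth is unknown. Peak positions were converted to 1-based coordinates. The build was checked by chromosome names and lengths. Gene starts came from GENCODE M21, sequence and functional elements from RefSeq's GRCm38.p6 annotation, and lower-case bases were taken as repeat-masked. Motifs were searched on both strands, the composite element over 15 bases with at most 3 mismatches and the others without mismatch, CTCF by its core consensus. The scanner was tested on simulated sequences with planted motifs. A gene's distance was to any annotated start.

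By rule, every peak of the locus was described, with the 5 genes, other genes starting inside it (some are not reported here), and lists of 20 pluripotency genes and 11 relatives. The peaks, lists and motifs were chosen with earlier results of these data known, and the sequences of peaks 5 and 7, the RefSeq features, the 2 kb region minimum and the 30 bp distance after values had been seen. Alternatives concerned the window, starts used, motif definition, peak width and promoter distance. Scripts ran in Python 3.11.15 with NumPy 2.4.6 for counting, SciPy 1.17.1 for intervals and matplotlib 3.10.9 for plots.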

Additional observations from a re-analysis of the deposited data

How the results depend on the processing

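Of 70 values recomputed under alternatives for 19 results, 57 stayed close to the reported value and 13 moved. Counts, densities and distances were taken as moved if they changed by more than a factor of 1.5, and medians if they left their 95% interval. The number of peaks near promoters, 1 as reported, was 3 with a promoter distance of 2.5 kb and 2 with the starts of all annotated genes. With a 200 kb window the number was 3, but of 20 peaks rather than 15. Peaks with a composite match fell from 3 to 1 when at most 2 mismatches were allowed, and peaks with a SOX core from 8 to 5 when only the central 200 bp were searched. Counts of peaks per gene moved with the distance: at 50 kb they were 5 for Nanog, 5 for Dppa3 and 4 for Gdf3, and at 10 kb they were 2 for Nanog, 2 for Dppa3, 2 for Gdf3, 2 for Apobec1 and 4 for Slc2a3.

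No paired analysis was possible because the merged peaks carry coordinates alone, and for the same reason no replicate could be left out. Without read counts, weak and strong peaks cannot be separated, and sites under the calling threshold are missing from the list. The counts rest on 15 peaks, some of which share a cluster.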
